A study of Homo sapiens with 6 samples.

Results

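The genes described here were the long intergenic noncoding RNA genes with a plain LINC name, the letters followed by digits alone, that were expressed in SKBR3 cells. Members were selected on their level, as a mean over all 6 libraries of at least 20 scaled reads, and the rule did not use the difference between the groups. LINC02303 was named as the marker of these genes with earlier results known, so its own difference is no independent evidence. Of 1782 such LINC genes listed, 1140 were at 0 in every library, 522 had some signal below the mean of 20, and 120 were members. A further 93 LINC names stood only inside merged names of overlapping genes and were not used. The members just inside the threshold were LINC01703, with a mean of 20.7 scaled reads, and LINC01271, with 20.8, and those just outside it were LINC00940, with 19.7, and LINC01607, with 19.5.

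SKBR3 is a HER2-positive human breast adenocarcinoma line. The 3 CTTN libraries came from SKBR3 cells infected with a pLVX lentivirus that carried CTTN cDNA, which encodes the actin-binding protein cortactin, and the 3 CON libraries came from SKBR3 cells that carried the empty pLVX vector. Both were stable lines kept by puromycin selection, with 1 line for each construct, so the construct and anything else that set the lines apart cannot be told apart. The study's design text calls the 3 samples of a group biological replicates. Nothing in the sources used here says that they were separate infections, so the p-values measure the spread between these samples.

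A LINC gene is a locus between protein-coding genes that gives a spliced, usually polyadenylated RNA with no long conserved reading frame. The name is a placeholder given by order of naming and carries no function. Some of these RNAs act in the nucleus on chromatin or on neighbouring genes, some bind proteins or microRNAs in the cytoplasm, and a few hold a short reading frame that is translated. They are mostly less abundant and more restricted to single cell types than messenger RNAs, and many were first studied for their levels in tumours.

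Sequences are shown for 5 members that the comparison below turned on. For LINC02303 and LINC01405, which rose, they are 300-base stretches of the most abundant annotated transcript, with the longest ATG-to-stop reading frame in capitals. These were read by transcript identifier from GENCODE 44 as lifted to GRCh37, because the length there equalled that in the deposited assembly. All sequences are written 5′ to 3′ in DNA letters.
LINC02303, ENST00000555442, bases 590 to 889 of 889: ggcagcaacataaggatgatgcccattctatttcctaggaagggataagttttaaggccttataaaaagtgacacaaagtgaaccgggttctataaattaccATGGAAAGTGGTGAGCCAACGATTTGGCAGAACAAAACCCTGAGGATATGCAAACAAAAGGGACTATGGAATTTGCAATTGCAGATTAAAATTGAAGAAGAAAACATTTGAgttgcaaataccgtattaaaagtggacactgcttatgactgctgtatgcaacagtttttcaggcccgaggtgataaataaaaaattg
LINC01405, ENST00000331096, bases 65 to 364 of 364: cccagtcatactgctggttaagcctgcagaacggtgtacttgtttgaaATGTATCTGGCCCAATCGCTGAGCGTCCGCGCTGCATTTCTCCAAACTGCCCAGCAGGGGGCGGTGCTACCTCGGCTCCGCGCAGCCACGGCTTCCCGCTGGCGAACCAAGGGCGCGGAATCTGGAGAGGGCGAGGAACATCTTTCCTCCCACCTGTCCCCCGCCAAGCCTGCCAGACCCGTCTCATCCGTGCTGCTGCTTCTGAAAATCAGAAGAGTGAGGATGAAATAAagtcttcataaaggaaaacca
The frame of LINC02303 held 36 codons before its stop, and that of LINC01405 held 76. Over the 68 members whose leading annotated transcript was as long in GENCODE as in the assembly, to within 1 base, the longest frame ranged from 18 to 270 codons with a median of 88, and 29 reached 100 codons. A frame in these letters says nothing about translation. The GC content of these 68 transcripts ran from 35.4% to 62.7%, with a median of 49.2%.

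Promoters from 250 bases before to 50 bases after the start were held in the RefSeq table (GRCh38.p14) for 84 members. They are shown for the 3 called members that had one, LINC00665, which fell, and LINC00294 and LINC01234, which rose, with CCAAT and its reverse complement ATTGG in capitals. LINC00665 has 2 starts in that table, and only the first listed is shown and counted for it.
LINC00665, chr19:36331669-36331968, minus strand: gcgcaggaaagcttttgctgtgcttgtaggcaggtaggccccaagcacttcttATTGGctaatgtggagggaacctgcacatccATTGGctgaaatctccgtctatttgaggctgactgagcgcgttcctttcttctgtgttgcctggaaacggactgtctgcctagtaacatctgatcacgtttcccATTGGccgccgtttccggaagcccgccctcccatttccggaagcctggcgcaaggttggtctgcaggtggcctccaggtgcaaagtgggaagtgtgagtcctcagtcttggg
LINC00294, chr11:33075900-33076199, plus strand: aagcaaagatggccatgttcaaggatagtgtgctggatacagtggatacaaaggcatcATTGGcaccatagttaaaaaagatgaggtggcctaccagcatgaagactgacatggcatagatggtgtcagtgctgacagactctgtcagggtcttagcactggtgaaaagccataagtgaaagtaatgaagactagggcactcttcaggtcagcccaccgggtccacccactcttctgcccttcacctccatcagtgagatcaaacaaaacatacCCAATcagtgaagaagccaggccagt
LINC01234, chr12:113773634-113773933, minus strand: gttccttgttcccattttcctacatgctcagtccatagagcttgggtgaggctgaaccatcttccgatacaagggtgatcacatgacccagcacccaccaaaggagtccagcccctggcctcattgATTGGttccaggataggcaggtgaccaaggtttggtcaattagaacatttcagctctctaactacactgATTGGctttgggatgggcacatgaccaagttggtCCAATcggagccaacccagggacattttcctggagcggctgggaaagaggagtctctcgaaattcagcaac
CCAAT is the letters of the CCAAT box, the site of the factor NF-Y. Counted on both strands it occurred 3 times for LINC00665, 2 times for LINC00294 and 3 times for LINC01234, and it was put in capitals after these sequences had been seen. At least 1 copy was found in 35.5% of the 93 promoters of members, some of which had several starts, and in 34.6% of all 35116 promoters. At least 2 copies were found in 13.98% and 10.75%, and at least 3 in 6.45% and 3.26%. The TATA letters TATAAA were found in 13.98% of member promoters and in 11.5% of all, the GC box letters GGGCGG in 49.5% and 44.95%, and CTTTGAT, a form of the site of the Wnt pathway's TCF/LEF factors, in 6.45% and 2.62%, each on either strand. None of the 3 printed promoters held TATAAA or CTTTGAT. These are matches of letters, and no binding was measured.

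CTTN itself was measured first. It stood at 10912, 11228 and 11265 scaled reads in CON 1, 2 and 3 and at 29088, 37144 and 18999 in CTTN 1, 2 and 3, so every CTTN library lay above every CON library (log2 fold change 1.35, SE 0.22, edgeR adjusted p = 0.0276). Without CTTN 1, CON 1, CON 2 or CON 3 its adjusted p was 0.137, 0.153, 0.170 and 0.157. The libraries held 34887079 to 41279658 fragments assigned to genes, recovered from the scaled values and the scale factor of each library. Across all genes the CON libraries were close together and the CTTN libraries were not: on the first principal component, which held 67.3% of the variance, CON ran from -28.4 to -20.9, while CTTN 2 stood at -6.48, CTTN 1 at 24.2 and CTTN 3 at 58.3. The 10 SKBR3 markers, among them ERBB2, GRB7, KRT8 and KRT18, were expressed in every library, whereas VIM, which this line is known to lack, was at 0.251 FPKM or less. Of 6 stromal and immune markers, COL1A1 ran from 2.83 to 4.26 FPKM, and COL1A2, PECAM1, PTPRC, CD3E and CD14 did not exceed 0.624 FPKM in any library.

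Of the 120 members, all of which were among the 14433 genes tested, 5 were called higher and 4 lower in CTTN-overexpressing cells at an edgeR adjusted p below 0.05. These are 4.17% and 3.33% of the members, beside 2.05% and 1.77% of all genes tested. Of the 9 called members, 8 changed at least 1.5-fold, which was not counted for all called genes. The members split evenly in direction, with 60 log2 fold changes above 0 and 60 below, and their median of 0.01 equalled the median of 0.01 over all genes tested to 2 decimals. Their median size of change was larger, at 0.36 log2 units against 0.26, and their median level was lower, at 69.0 scaled reads against 804. All 3 CTTN values lay above all 3 CON values in 22 members (18.3%, beside 19.7% of all genes) and below them in 21 (17.5%, beside 18.9%), so the shares of members with groups apart were near the background. The number of calls moved with single libraries, among the members and among all genes. Without CTTN 2 the test called 44 members (36.7%, beside 46.8% of all genes) and without CTTN 3 it called 17 (14.2%, beside 8.54%), the 9 included both times. It called 1 member (0.833%) without CTTN 1, without CON 1 or without CON 3, beside 0.116%, 0.184% and 0.102% of all genes. Without CON 2 the edgeR test called no member, beside 0.0746% of all genes, with 26 of 120 members and 2251 of 14748 genes at an unadjusted p below 0.05. DESeq2 on all 6 libraries called 20 members (16.7%), 10 in each direction, including all 9. It called 1900 of the 25834 genes with any read (7.35%). That set had no filter on low counts and is wider than the 14433, so the 2 shares are not like for like.

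**Figure D1:**
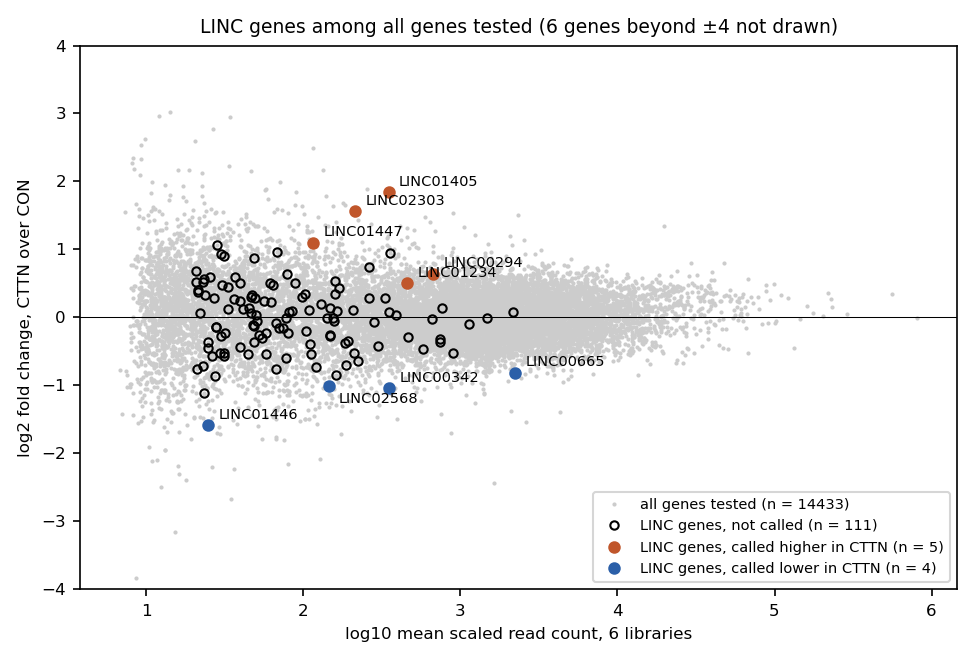
The log2 fold change of CTTN over CON (vertical axis) against the log10 mean scaled read count of 6 libraries (horizontal axis) for all 14433 genes tested (grey), the 111 LINC genes not called (open circles) and the 9 called (filled). The called LINC genes ran from LINC01405 at 1.84 to LINC01446 at -1.59, and 6 genes beyond 4 log2 units in either direction are not drawn.

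The 5 members that rose were LINC01405, LINC02303, LINC01447, LINC00294 and LINC01234, by 1.42-fold to 3.58-fold in the means. LINC01405 (chr12:110936602-110937448) is named VHRT in RefSeq and lies near MYL2, a cardiac and slow muscle myosin light chain gene. It stood at 150, 143 and 165 scaled reads in CON 1, 2 and 3 and at 498, 369 and 771 in CTTN 1, 2 and 3. The CTTN values were far from each other, with CTTN 3 at the top, but the lowest of them was above every CON value (log2 fold change 1.84, SE 0.27, edgeR adjusted p = 0.0191).

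LINC02303 (chr14:45706258-45715602), which RefSeq also lists as TRMP, was known to earlier work as a p53-regulated RNA that acts on p27. It stood at 115, 102 and 108 scaled reads in the CON libraries and at 300, 314 and 345 in the CTTN libraries. Both groups were tight and far apart, with the means at 108 ± 6.20 and 319 ± 23.1 (SD, n = 3), and it had the smallest adjusted p of all members (log2 fold change 1.56, SE 0.12, edgeR adjusted p = 0.00333). Of the 9 called members, it was the one whose call held in the most alternatives, 14 of 15, the exception being the fit without CON 2 (adjusted p = 0.0512).

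LINC01447 (chr7:47621939-47629893) rose as well. Its CON values were 77.4, 71.6 and 70.9 scaled reads and its CTTN values were 144, 143 and 185, a gap with no overlap (log2 fold change 1.10, SE 0.16, edgeR adjusted p = 0.0169). LINC00294 (chr11:33076150-33079454), a gene with a single assembled transcript, stood at 492, 527 and 556 scaled reads in CON and at 858, 794 and 811 in CTTN (log2 fold change 0.64, SE 0.09, edgeR adjusted p = 0.0156). LINC01234 (chr12:113744577-113773683), studied elsewhere as a tumour-associated RNA, changed least of the called members, from 404, 392 and 346 to 571, 542 and 503 (log2 fold change 0.50, SE 0.10, edgeR adjusted p = 0.0482). In both of these genes the 3 CTTN libraries were close to each other and all above CON.

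The 4 members that fell were LINC00665, LINC00342, LINC02568 and LINC01446, whose CTTN means were 0.332 to 0.570 of the CON means. LINC00665 (chr19:36313061-36331753), an RNA studied in several carcinomas and shown elsewhere to hold a translated short frame, had the highest mean count of all members over the 6 libraries, although LINC00963 was above it in each CTTN library. It stood at 2686, 2832 and 2975 scaled reads in CON 1, 2 and 3 and at 1575, 1709 and 1554 in CTTN 1, 2 and 3 (log2 fold change -0.81, SE 0.08, edgeR adjusted p = 0.00727). The 3 values of each group were close, and the groups were apart by far more than their spread.

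LINC00342 (chr2:95807052-95826981) stood at 473, 462 and 479 scaled reads in CON and at 247, 203 and 236 in CTTN (log2 fold change -1.04, SE 0.11, edgeR adjusted p = 0.00697). LINC02568 (chr15:63390230-63437536) stood at 214, 194 and 174 in CON and at 107, 82.1 and 99.7 in CTTN (log2 fold change -1.01, SE 0.15, edgeR adjusted p = 0.0204). LINC01446 (chr7:53655509-53811931) was near the limit of what these libraries count, at 42.3, 41.0 and 28.7 in CON and at 12.4, 13.7 and 11.1 in CTTN (log2 fold change -1.59, SE 0.26, edgeR adjusted p = 0.0265). It was the only called member with a group mean below 20 scaled reads, so it entered the members through its CON values. Over all members, 108 had both group means at 20 or above, and 8 of these were called. The test called 552 of all 14433 genes (3.82%), which were not held to that limit.

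Leaving out CTTN 1, CON 1, CON 2 or CON 3 ended the calls of LINC01405, LINC01447, LINC00294, LINC01234, LINC00665, LINC00342, LINC02568 and LINC01446, with adjusted p from 0.0548 for LINC00342 without CTTN 1 to 0.217 for LINC01234 without CTTN 1. Without CTTN 2 or without CTTN 3 these 8 calls held, and none of the 9 changed direction in any alternative. With limma on log2(FPKM + 0.1) and log2(FPKM + 1), LINC00294 (adjusted p = 0.0744 and 0.0738), LINC02568 (0.0609 and 0.0540), LINC01446 (0.0671 and 0.0875) and LINC01234 (0.115 and 0.112) were not called, and LINC01447 was not called in the first (0.0511). The log2 fold change of LINC01446 was -1.02 and -0.25 on these scales. That of LINC01447 was 0.99 and 0.58, and that of LINC02568 was -0.92 and -0.60.

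**Figure D2:**
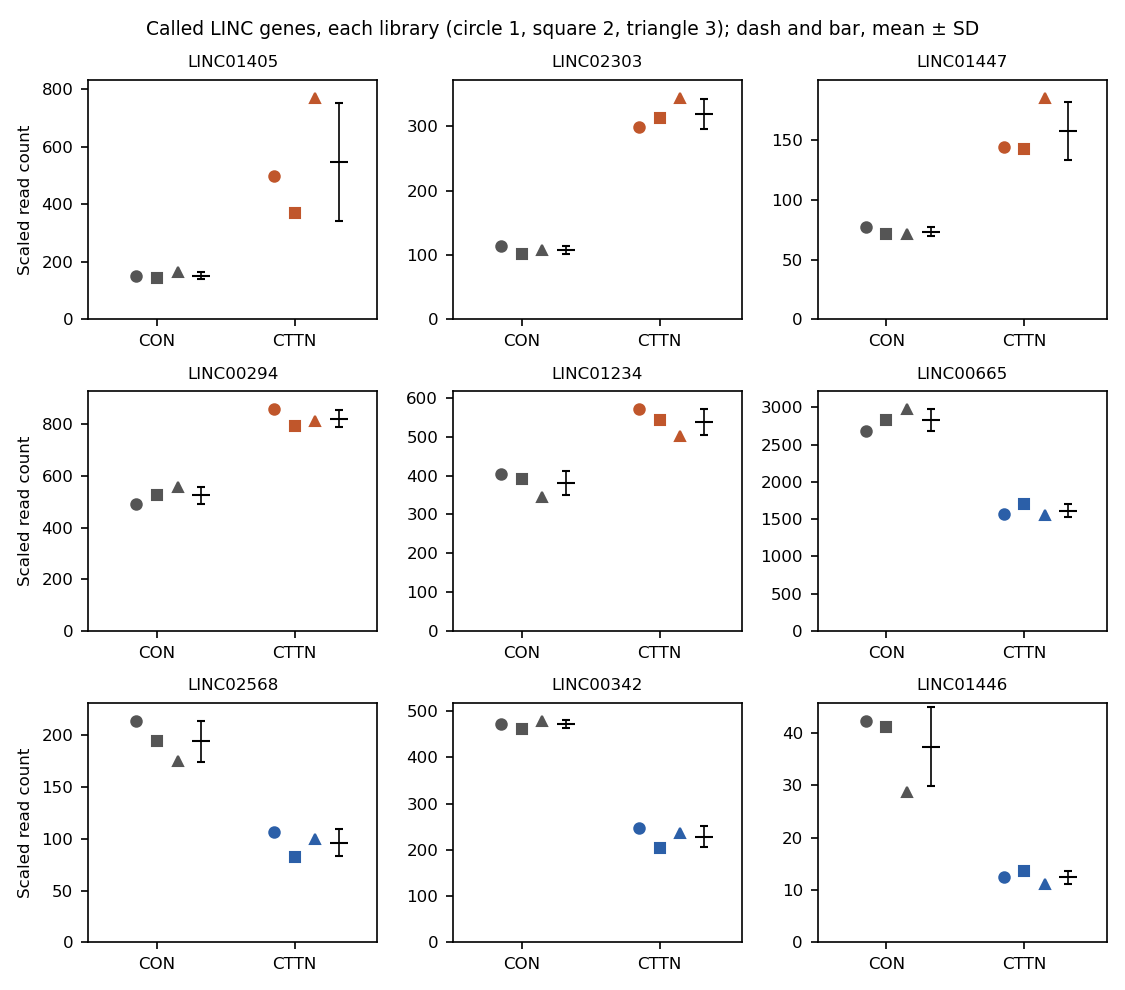
Scaled read counts (vertical axes, from 0) of the 9 called LINC genes in the CON and CTTN libraries, ordered by fold change, with circles, squares and triangles for libraries 1, 2 and 3 and a dash with a bar for the mean ± SD (n = 3). The groups do not overlap in any of the 9 panels, and the widest spread is that of LINC01405 in CTTN, from 369 to 771.

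Below the calls, 10 members had an adjusted p between 0.05 and 0.1, and 21 members were at least 1.5-fold apart without a call, 11 of them higher and 10 lower in CTTN. The same was not counted over all genes tested, so these counts have no background beside them. The nearest to a call was LINC01484, at 26.8, 34.9 and 34.5 scaled reads in CON and 13.5, 16.6 and 14.4 in CTTN (log2 fold change -1.12, SE 0.24, edgeR adjusted p = 0.0519). LINC01806 was at 16.5, 22.7 and 15.3 in CON and at 41.5, 36.2 and 37.7 in CTTN (log2 fold change 1.06, SE 0.24, edgeR adjusted p = 0.0568). Both were low in count, and each had a mean of 20 through only 1 of its groups, LINC01484 through CON and LINC01806 through CTTN. LINC01315 was at 255, 229 and 240 scaled reads in CON and at 386, 301 and 714 in CTTN, groups that did not overlap but with CTTN 3 far above the other CTTN libraries (log2 fold change 0.95, edgeR adjusted p = 0.115). It was called without CTTN 3, at 0.51 (adjusted p = 0.0466), without CTTN 2, at 1.18 (adjusted p = 0.00441), and with DESeq2 (adjusted p = 0.0207). LINC01484 and LINC01806 were also called with DESeq2 (adjusted p = 0.0368 and 0.0355) and without CTTN 2 (0.0129 and 0.0150), and LINC01484 with the filter at a mean of 20 (0.0485). With limma on log2(FPKM + 0.1) and log2(FPKM + 1), LINC01484 went to -0.43 and -0.14 (adjusted p = 0.543 and 0.561) and LINC01806 to 0.83 and 0.37 (0.192 and 0.184).

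Levels between genes were compared per length, as FPKM. The median member had a mean of 1.68 FPKM, and the members ran from 0.189 to 61.6, with 42 below 1, 20 at 5 or more and 9 at 10 or more. Ordered by the mean over all 6 libraries, LINC01978 was highest at 60.1 ± 5.67 FPKM in CON and 63.1 ± 11.9 in CTTN (SD, n = 3), followed by LINC01405 at 27.2 ± 2.39 and 93.6 ± 34.4. The means of this pair changed places between the groups: LINC01978 was above LINC01405 in each CON library, and in CTTN their values overlapped. LINC00665 was also above LINC01405 in each CON library and below it in each CTTN library. It came next at 37.4 ± 1.02 FPKM in CON and 22.4 ± 0.187 in CTTN, then LINC00963 at 18.9 ± 0.851 and 20.7 ± 0.984, LINC01029 at 19.6 ± 2.09 and 15.8 ± 2.11, and LINC01315 at 10.5 ± 0.558 and 21.8 ± 11.2. LINC00963 and LINC01029 did not differ beyond their spread in CON. LINC01978, LINC00963 and LINC01029 were not called between the groups in scaled reads, with log2 fold changes of -0.02, 0.08 and -0.47 and edgeR adjusted p of 0.951, 0.574 and 0.0799. LINC01029 was called in 4 of 15 alternatives, with DESeq2 (adjusted p = 0.0164), with library totals only (0.0488), without CTTN 2 (0.0131) and without CTTN 3 (0.0205). The leading transcript of LINC01405 was 364 bases long, and a short transcript makes FPKM sensitive to the length correction. FPKM summed to 603634 to 624680 in CON and to 704018, 605260 and 852256 in CTTN 1, 2 and 3, so FPKM of different groups were also not on a single total.

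**Figure D3:**
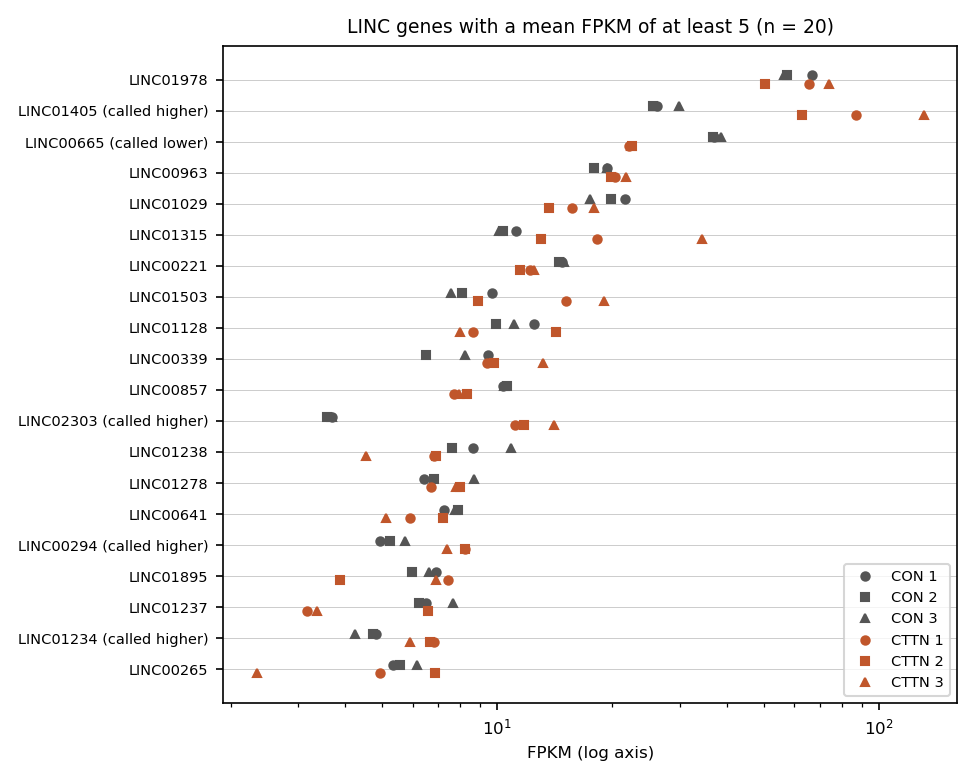
FPKM on a log axis of the 20 LINC genes with a mean of at least 5 FPKM, in each CON library (grey) and each CTTN library (orange), with 5 called genes marked. LINC01978 and LINC01405 are at the top, and the groups are apart in all 5 called genes.

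All members together took a very small share of the scaled reads. This share was 0.0672%, 0.0657% and 0.0673% in CON 1, 2 and 3 and 0.0608%, 0.0652% and 0.0584% in CTTN 1, 2 and 3. CTTN 3 was lowest, and CTTN 2 was just below the lowest CON library. As a share of all FPKM of the library the members took 0.0721%, 0.0696% and 0.0732% in CON 1, 2 and 3 and 0.0716%, 0.0770% and 0.0685% in CTTN 1, 2 and 3, and on this measure the groups overlapped.

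The CTTN libraries differed among themselves in the members too. The median coefficient of variation of a member was 11.4% in CON and 18.3% in CTTN, and it was larger in CTTN in 86 of 120 members, or 71.7%, beside 81.0% of all genes tested. CTTN 3 held the highest or the lowest of the 6 values in 62.5% of members, 36 at the top and 39 at the bottom, beside 75.2% of all genes. CTTN 1 lay between CTTN 2 and CTTN 3 in 77 members (64.2%, beside 74.2% of all genes). From highest to lowest in CTTN mRNA, the libraries were CTTN 2, CTTN 1 and CTTN 3. On the first component this was their order from nearest to farthest from CON, so the library with the smallest rise in CTTN stood farthest. The reason was not tested.

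**Figure D4:**
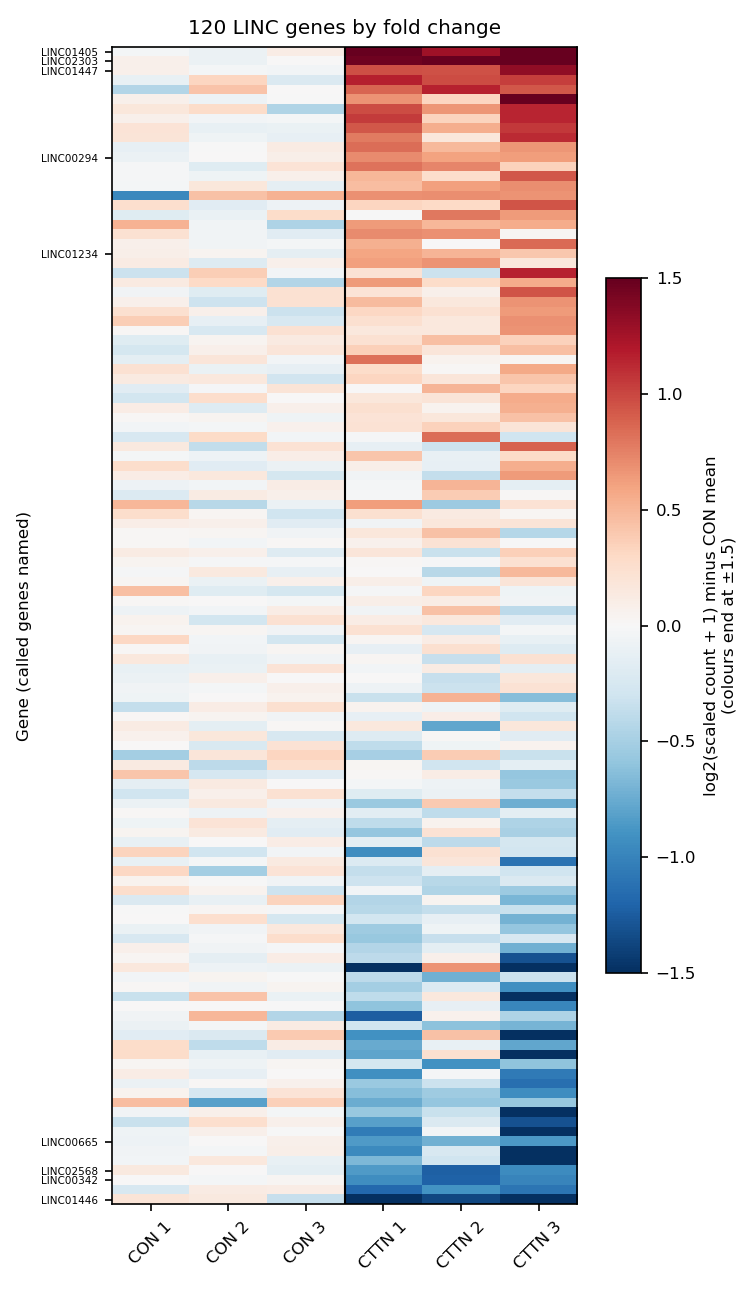
Each row is 1 of the 120 LINC genes, ordered by fold change, and each column 1 library, coloured by log2(scaled count + 1) minus the mean of the CON libraries, with colours ending at 1.5 in either direction and the 9 called genes named. CTTN 3 holds the highest or lowest value in 62.5% of rows, and CTTN 2 is the CTTN library nearest to the CON mean in 49.2%.

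The members lay on 23 chromosomes, most on chromosome 1 with 15, chromosome 2 with 12, chromosome 7 with 9 and chromosome 17 with 8. RefSeq classes 119 as lncRNA and 1, LINC00672, as protein coding, and 12 carry another symbol there. Their spans ran from 561 to 384069 bases with a median of 11638. In RefSeq 107 members did not overlap the span of a coding gene and 13 did, and, of the 84 members with a start in the RefSeq table, which hold 3 of the 9 called, 22 had it within 1000 bases of the start of another gene on the opposite strand. Of these divergent pairs 11 had values for both genes, and 5 of the 11 moved in the same direction. The nearest coding gene was in the test for 78 members, with 44 of the 78 pairs moving in the same direction and a Pearson r of 0.03 across pairs, which share libraries and are not independent.

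LINC02568 and CA12, the gene of carbonic anhydrase XII, lay 8384 bases apart and both fell. CA12 stood at 8621, 8983 and 9256 scaled reads in CON and at 5094, 6007 and 4037 in CTTN (log2 fold change -0.83, SE 0.14, edgeR adjusted p = 0.0306). No other nearest gene tested beside a called member was called. LINC00665 lay 2700 bases from ZFP14, a zinc finger gene, which had a log2 fold change of -0.33 (SE 0.12, edgeR adjusted p = 0.136). LINC00294 lay 2587 bases from TCP11L1 (log2 fold change 0.11, adjusted p = 0.760), LINC01447 39353 bases from TNS3, a focal adhesion tensin gene (-0.35, adjusted p = 0.356), and LINC01234 43057 bases from RBM19 (-0.10, adjusted p = 0.504). MYL2, 15153 bases from LINC01405, had a mean below 1 scaled read in each group and was not tested, and POM121L12, the nearest to LINC01446, was at 0 in all libraries. The nearest gene of LINC00342, 6861 bases away, is known in RefSeq by a LOC number only and had no value of its own. The kit kept strand, but the sources used here do not say whether the counting did, so reads of overlapping genes on opposite strands may have been shared.

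The deposited assembly gave the members 1 to 31 transcripts with a median of 3, and 36 members had 1. The leading transcript took a median of 77.4% of a member's FPKM and was an exact match to an annotated transcript in 114 members. In LINC02303 the leading transcript of 889 bases took 56.9% of the CON FPKM and 42.9% of the CTTN FPKM over 6 transcripts, so more of the rise was in the other 5. In LINC02568 the leading form, of 2230 bases and with a splice pattern not annotated, took 65.1% in CON and 41.8% in CTTN. The split was steadier in LINC01405 (96.0% and 95.8%), LINC00342 (86.9% and 84.3%) and LINC01234 (83.4% and 85.9%), and LINC00294, LINC01447 and LINC01446 had 1 transcript each. These shares are estimates from short reads and were not tested.

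Some genes first given LINC names were later found to encode small proteins. Of 8 such names, LINC00467 was the only one listed, and it was a member. LINC00467, whose RNA holds a frame for a mitochondrial peptide that binds ATP synthase, stood at 172, 167 and 139 scaled reads in CON and at 180, 126 and 204 in CTTN, and the groups overlapped (log2 fold change 0.09, SE 0.20, edgeR adjusted p = 0.756). Its direction was not fixed, turning to -0.061 without CTTN 3 and to -0.0016 without CON 3.

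Antisense genes, whose names end in AS and a number, gave a comparison with another class of noncoding RNA at the same threshold. Of 218 such genes with a mean of at least 20 scaled reads, 5 were called higher (2.29%) and 1 lower (0.459%), beside 2.15% and 1.87% of the 13179 genes tested at that threshold. Of the 218, 145 had a log2 fold change above 0, with a median of 0.17, beside 6609 of the 13179 genes. The members had 60 of 120 above 0 and a median of 0.01. The difference between the 2 classes was not tested.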

How the data were processed

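PolyA RNA of 3 CTTN and 3 CON SKBR3 samples was sequenced with a stranded kit. Per the labels and the study's methods, the authors trimmed reads, aligned them with STAR and assembled and quantified transcripts with Cufflinks. The study's text and the submitters' processing notes name different builds. The deposited gene positions overlapped RefSeq GRCh38.p14 for 99.9% of 31000 uniquely named genes and GRCh37 for 16.2%, so GRCh38 is used here for positions. Transcript sequences came from GENCODE 44 as lifted to GRCh37. The authors deposited FPKM and a table of fragment counts divided by a scale factor per library, which is a scaled signal and not raw counts as had been planned for. Multiplied back by that factor, 100% of the values between 0 and 100 were within 0.05 of a whole number, and a test on these recovered fragments called 555 genes, against 552 on the deposited values. No column of per-sample values was left out (0).

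The CTTN columns were taken from the labels. The labels and the deposited table of libraries disagree on the control columns, so these were used as CON without a replicate number, and CON 1 to 3 are names only.

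The scaled values, rounded, were tested with edgeR 4.0.16 (quasi-likelihood, TMM factors, filterByExpr with a minimum count of 10) over 14433 genes, with Benjamini-Hochberg adjustment and calls at an adjusted p below 0.05 under R 4.3.3. No member was lost to the filter. Alternatives used DESeq2 1.42.0, limma 3.58.1 on log2(FPKM + 0.1) and log2(FPKM + 1), other scalings and filters, other member thresholds and each library left out. Limma on log2(scaled count + 0.1) was added after seeing the data. The script was tested on simulated data.

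The members and lists were chosen with earlier results of these data known. Genes named were all called members, LINC02303, the 6 highest in FPKM, the 4 largest rises and falls, the genes beside the threshold, names of micropeptide genes, the nearest coding genes of called members, and CTTN. Genes named outside this rule were chosen after their values were seen. Nearest genes and spans came from RefSeq GRCh38.p14, and the neighbour of 1 called member is not reported here and was left out of the counts of pairs. The locus of a deposited row can be wider than the gene, as for LINC00294.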

Additional observations from a re-analysis of the deposited data

How the results depend on the processing

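No paired analysis was possible because the control columns carry no replicate number on which the labels and the deposited table of libraries agree. Over all genes, 296 were called higher and 256 lower. DESeq2, on the 25834 genes with any read, called 973 and 927. Limma on log2(FPKM + 0.1) called 103 and 71, and limma on log2(FPKM + 1) 98 and 76. With 1 library left out the counts ran from 8 to 3360 higher and from 3 to 3530 lower, lowest without CON 2 and highest without CTTN 2. The members called higher and lower were 10 and 10 with DESeq2 (16.7% of members together, beside 7.35% of the 25834 genes). With limma they were 2 and 2 at + 0.1 (3.33%, beside 1.21% of 14433 genes) and 3 and 2 at + 1 (4.17%, beside 1.21%). With 1 library left out they ran from 0 to 18 and from 0 to 26. Together these were 0% to 36.7% of members, beside 0.0746% to 46.8% of all genes. The members' median of 0.01 ran from -0.0529 without CTTN 2 to 0.0523 without CON 1. The CTTN transcript had a log2 fold change of 1.23 and 1.22 (adjusted p = 0.0557 and 0.0566) with limma on FPKM, and of 1.10 to 1.57 with 1 library left out. LINC01978 turned to 0.0575 and 0.0568 with limma on FPKM and ran from -0.152 to 0.122 with 1 library left out, above 0 without CTTN 2 (0.122) and without CON 1 (0.0663). LINC00963 turned to -0.0047 without CTTN 3, and LINC00467 ran from -0.0612 without CTTN 3 to 0.264 without CTTN 2, with -0.0016 without CON 3. The causes were not tested. The same 9 members were called with relative log expression factors, with recovered fragments and with a filter at a mean of 20, which added 1 more. LINC01234 was not called with library totals only (adjusted p = 0.0855), without the filter (0.0565) or with any of the limma fits, and LINC00294, LINC02568 and LINC01446 were not called with either limma fit on FPKM, nor LINC01447 with the one at + 0.1. The median member had 69.0 scaled reads, and the part of depth and of the spread between the CTTN libraries in the number of calls was not tested.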

Other observations

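Long noncoding RNAs with names of their own were looked up as a list of 40, of which 35 lay in rows that were tested, some merged with small RNAs or neighbouring genes. They included TINCR, an RNA of epidermal differentiation, at 2068 scaled reads in CON and 3122 in CTTN (log2 fold change 0.59, edgeR adjusted p = 0.0169), and H19, an imprinted growth-linked RNA counted in 1 row with MIR675, at 1581 and 3479 (1.14, adjusted p = 0.00422). The row that merges HCP5 with the coding gene MICA was at 18.1 and 47.8 (1.41, adjusted p = 0.0408). These 3 of the 35 rows were called higher and 0 were called lower with edgeR, beside 2.05% and 1.77% of all genes tested, where HOTAIR (log2 fold change -0.61, adjusted p = 0.0680) was the 1 lower row at an unadjusted p below 0.05. DESeq2 called 4 of the 35 rows higher and 1 lower, beside 7.35%, in either direction, of the 25834 genes with any read. That set had no filter on low counts and is wider than the set tested with edgeR. Its share is therefore not a like-for-like background for these rows. MALAT1 and NEAT1, both nuclear RNAs, were at log2 fold changes of -0.15 and -0.04 (adjusted p = 0.346 and 0.873).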
